A study of Mus musculus with 15 samples.

Results

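A set of 8 genes that respond to fasting and to PPAR was followed through the hearts of mice with chronic kidney disease (CKD). The set comprised Angptl4, Pdk4, Pdk2, Ucp2, Ucp3, Cpt1a, Acot1 and Plin2, and these 8 were chosen by name from the 17447 genes of the deposited count table, with earlier results of the same data known. All 8 were found in the table. Since the choice drew on the levels in all 5 groups, the levels and differences of the 8 genes are given as descriptions, without p-values. All hearts came from male C57BL/6J mice, 3 per group, aged 6 to 8 weeks at the start and collected at 18 weeks after surgery. WTSHAM mice were wild type and had a sham operation, for which the labels name no vector. WTCKD mice were wild type, had a 5/6 nephrectomy and received the empty vector. WTCKD + RNLS mice had the same genotype and operation and received AAV9-cTnT-Rnls, a virus that carries renalase (RNLS) behind the cardiac troponin T promoter, which is active in cardiomyocytes. KOCKD mice were RNLS knockouts made with TALENs against exon 4, with nephrectomy and vector, and KOCKD + RNLS mice were knockouts with nephrectomy and the virus. The nephrectomy and the vector particles are therefore both new in WTCKD compared with WTSHAM and cannot be told apart there, and a knockout sham group was not analysed here. The paper names Cyagen Biosciences for making the knockouts and another institute as the source of the wild type mice. Genotype and source of the mice therefore cannot be told apart. Rnls itself was not analysed here, so genotype and virus rest on the labels.

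PPARs are nuclear receptors that bind fatty acids and pair with RXR on DNA, where they switch on genes for the uptake, storage and burning of fat. In the heart, which burns mainly fatty acids, PPARα and PPARδ drive these genes, and fasting raises them as adipose tissue releases fatty acids. A common product of this program is the kinase PDK4, which shuts pyruvate dehydrogenase and so keeps glucose carbon out of the citric acid cycle. Several of these genes also answer to glucocorticoids, to FoxO factors when insulin is low, and to the circadian clock.

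The libraries held 10480788 to 13424078 reads counted on genes. Counts were scaled for library size by the TMM method and are given as CPM, and 13021 genes passed the filter on low counts. Markers of cardiomyocytes dominated in all 15 libraries, with 85589 to 117746 CPM in sum over 8 genes, while 8 skeletal muscle genes summed to 1.49 to 7.51 CPM. The 8 chosen genes all passed the filter. Angptl4 had the fewest counts, 4 to 19 per library in the groups with the virus. Levels of different genes were compared as FPKM, which divides by gene length. Pdk2 had the highest median over 15 libraries, 317 FPKM, followed by Pdk4 with 104, Ucp2 with 39.6, Plin2 with 26.3, Ucp3 with 20.3, Cpt1a with 11.8, Angptl4 with 3.70 and Acot1 with 3.15 FPKM. Every pair of neighbours in this order overlapped in range over the libraries. The groups differed most in Angptl4, whose highest group mean was 28.4 times its lowest in CPM, then in Pdk4 (10.2 times), Ucp3 (6.01 times) and Acot1 (5.55 times). For Pdk2, Ucp2, Plin2 and Cpt1a this ratio was between 1.30 and 1.53.

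**Figure D1:**
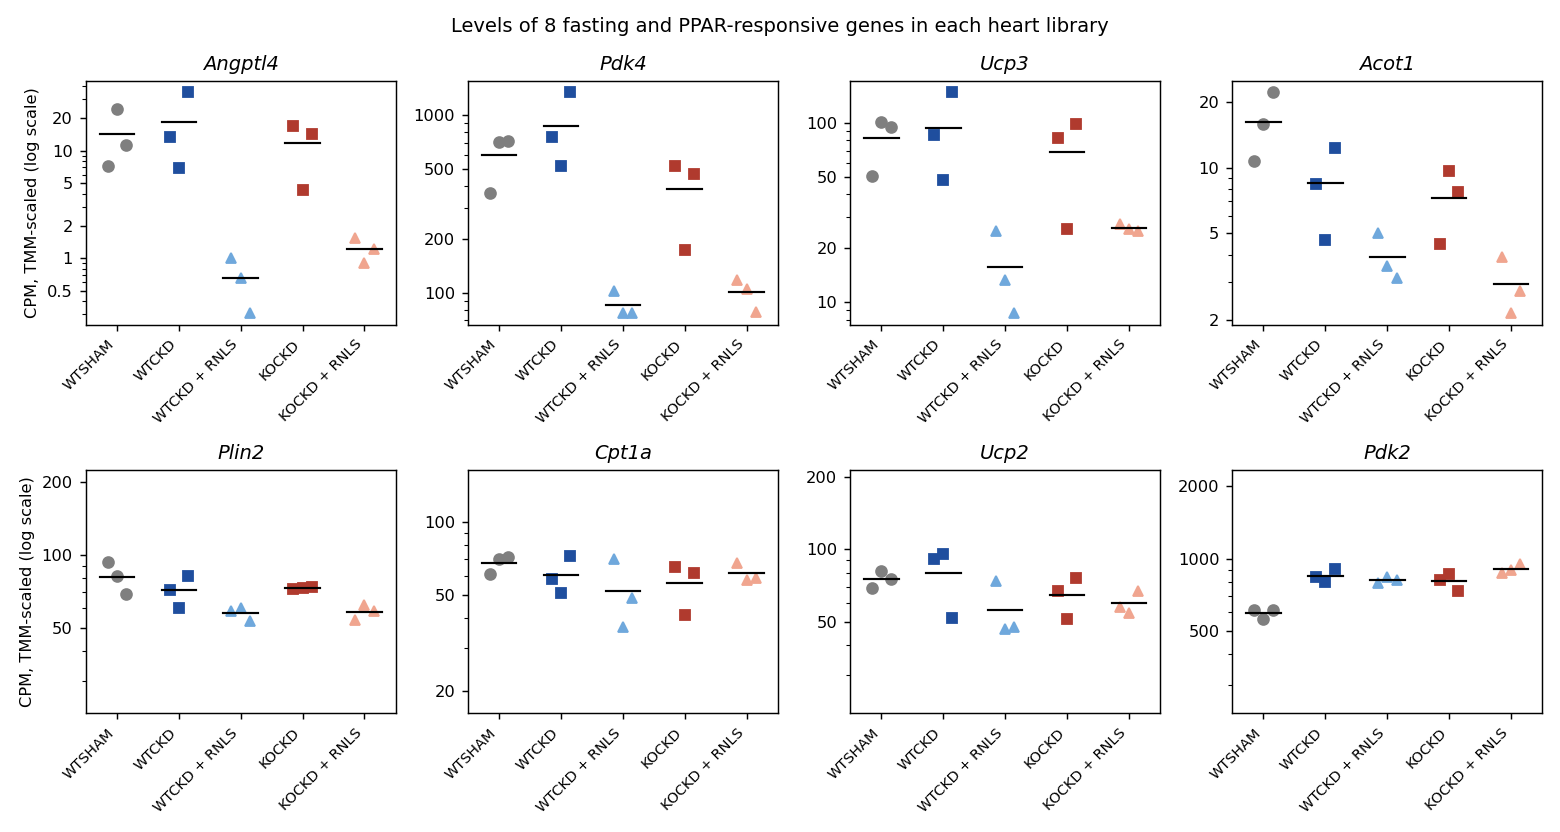
CPM (log scale) of the 8 genes in each library, with 3 points per group and a black line at the group mean; the lower row spans a factor of about 10 on each axis. Angptl4 lay between 0.306 and 1.54 CPM in the 6 hearts with the virus and between 4.29 and 35.1 CPM in the other 9, while Pdk2 was lowest in the 3 WTSHAM hearts.

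Angptl4 encodes a secreted protein that inhibits lipoprotein lipase and so limits the uptake of fat from circulating lipoproteins. It lies on the minus strand of chr17:33910695-33918520 (mm9), with 7 blocks of exons. Its levels were 7.17, 24.6 and 11.3 CPM in the WTSHAM hearts and 13.5, 6.89 and 35.1 CPM in the WTCKD hearts. In WTCKD + RNLS hearts they were 1.0, 0.650 and 0.306 CPM, or 12, 7 and 4 counts. All 3 hearts with the virus lay below all WTSHAM and WTCKD hearts. KOCKD hearts had 17.1, 4.29 and 14.3 CPM, and KOCKD + RNLS hearts had 1.54, 0.910 and 1.22 CPM, again without overlap. The fitted level was 28.4-fold lower in WTCKD + RNLS than in WTCKD (log2 fold change -4.83 ± 0.76, SE) and 9.70-fold lower in KOCKD + RNLS than in KOCKD (-3.28 ± 0.70). Without WTCKD replicate 3, the heart with the highest level, the value in the wild type was -3.97, and leaving out any other library of that comparison gave -5.29 to -4.46. The values with all libraries were the 6th lowest and the 13th lowest of the 13021 log2 fold changes. WTCKD against WTSHAM gave 0.37 ± 0.52, with overlapping groups, and without WTCKD replicate 3 the value was -0.49. KOCKD against WTCKD gave -0.63 ± 0.53, and 0.22 without the same heart.

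Pdk4 encodes a pyruvate dehydrogenase kinase, the isoform that responds most to fasting in muscle and heart, and lies on the minus strand of chr6:5433351-5446309 (mm9), with 11 blocks of exons. WTSHAM hearts had 366, 703 and 716 CPM, and WTCKD hearts had 753, 516 and 1347 CPM. In WTCKD + RNLS hearts Pdk4 was at 102, 77.2 and 76.6 CPM, below every heart without the virus. KOCKD hearts had 515, 173 and 465 CPM, with replicate 2 far below the other two, and KOCKD + RNLS hearts had 119, 105 and 78.1 CPM. Pdk4 was thus 10.2-fold lower in WTCKD + RNLS than in WTCKD (-3.35 ± 0.40) and 3.82-fold lower in KOCKD + RNLS than in KOCKD (-1.93 ± 0.38). Leaving out 1 library at a time moved these values between -3.61 and -2.90 and between -2.28 and -1.66. Pdk4 was the only one of the 8 genes whose KOCKD and WTCKD hearts did not overlap, as 19.3% of all genes did not. The gap was narrow, from 515 CPM in KOCKD replicate 1 to 516 CPM in WTCKD replicate 2. The level was 2.27-fold lower in KOCKD (-1.18 ± 0.37), and the value was -0.73 without WTCKD replicate 3. WTCKD against WTSHAM gave 0.55 ± 0.37, and 0.10 without WTCKD replicate 3.

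Ucp3 encodes a mitochondrial carrier of skeletal muscle and heart that is induced when fatty acids are abundant. It lies at chr7:107621499-107634941 (mm9, plus strand) with 5 blocks of exons, and 6904 bases downstream of its end begins its neighbour Ucp2. Ucp3 was at 50.6, 102 and 95.4 CPM in WTSHAM hearts and at 86.0, 48.2 and 149 CPM in WTCKD hearts. WTCKD + RNLS hearts had 25.0, 13.4 and 8.65 CPM, which was below both of these groups. In KOCKD hearts the levels were 82.1, 25.7 and 99.3 CPM, and in KOCKD + RNLS hearts 27.4, 25.5 and 25.1 CPM. The knockout groups overlapped through KOCKD replicate 2, the heart that was also lowest of its group in Angptl4 and Pdk4. Ucp3 was 6.03-fold lower in WTCKD + RNLS than in WTCKD (-2.59 ± 0.49) and 2.66-fold lower in KOCKD + RNLS than in KOCKD (-1.41 ± 0.46), and the value in the knockouts was -1.80 without that heart. WTCKD against WTSHAM gave 0.19 ± 0.44, and -0.30 without WTCKD replicate 3.

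Angptl4, Pdk4 and Ucp3 moved together from heart to heart. Over the 15 libraries Pearson's r of log2 CPM was 0.96 for Angptl4 and Pdk4, 0.96 for Angptl4 and Ucp3 and 0.94 for Pdk4 and Ucp3, and after subtracting the group means it was 0.89, 0.92 and 0.91. For Cpt1a with Angptl4, Pdk4 and Ucp3, r was 0.49, 0.49 and 0.64, and after subtracting the group means 0.73, 0.79 and 0.81. The movement within groups was thus not particular to the 3 genes. These values are descriptions, since the points of a pair share library and scaling. WTCKD replicate 3 was the highest of all 15 libraries in each of these 3 genes, and in Cpt1a too.

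The stretches just upstream of Pdk4 and Ucp3, which were lower with the virus, and of Pdk2, which was not, are shown because Pdk4 and Ucp3 moved together. They are the 250 bases before the RefSeq start (GRCm38.p6), written 5′ to 3′ on the strand of the gene, with capitals for matches to the core site of nuclear receptors such as PPAR (AGGTCA), to a direct repeat of it with 1 base between (at most 2 mismatches over the 12 fixed bases, so that it may contain a core site) or to the E-box of clock factors (CACGTG), each searched on both strands. Pdk4 is at chr6:5496279-5496528 (minus strand), Ucp3 at chr7:100472741-100472990 (plus strand) and Pdk2 at chr11:95041372-95041621 (minus strand, the upstream one of 2 listed starts).
Pdk4: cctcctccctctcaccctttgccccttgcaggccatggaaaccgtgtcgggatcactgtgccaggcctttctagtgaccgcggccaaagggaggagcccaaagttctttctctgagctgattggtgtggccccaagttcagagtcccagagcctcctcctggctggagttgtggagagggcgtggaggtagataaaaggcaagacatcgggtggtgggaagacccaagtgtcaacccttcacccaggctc
Ucp3: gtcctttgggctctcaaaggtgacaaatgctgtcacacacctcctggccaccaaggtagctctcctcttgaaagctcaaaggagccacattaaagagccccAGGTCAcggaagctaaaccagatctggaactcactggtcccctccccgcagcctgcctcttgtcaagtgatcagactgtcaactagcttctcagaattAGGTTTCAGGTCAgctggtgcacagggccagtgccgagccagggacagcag
Pdk2: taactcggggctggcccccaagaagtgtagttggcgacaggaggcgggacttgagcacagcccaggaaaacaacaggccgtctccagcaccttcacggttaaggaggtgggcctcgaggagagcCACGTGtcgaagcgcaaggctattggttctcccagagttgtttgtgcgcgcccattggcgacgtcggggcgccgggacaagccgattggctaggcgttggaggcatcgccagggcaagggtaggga

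Ucp3 held 2 core sites, the one nearer to the start lying within a match to the direct repeat with 2 mismatches that begins 51 bases before the start. No match was found in the window of Pdk4, and that of Pdk2 held 1 E-box. Windows were found for 7 of the 8 genes. Among the others, Plin2 held 1 core site within a match to the direct repeat on the opposite strand, Cpt1a held 1 core site, and Ucp2, Acot1 and the second window of Pdk2 held none of the 3 motifs. Of 32851 such windows in RefSeq, 4607 held a core site, 1063 (3.24%) a direct repeat and 1978 (6.02%) an E-box. These matches describe letters only, and whether PPAR binds there was not measured. Angptl4 has no entry in the table used.

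Acot1 encodes a cytosolic acyl-CoA thioesterase, an enzyme that frees fatty acids from coenzyme A and a classical target of PPARα. It lies at chr12:85350448-85358621 (mm9, plus strand), beside close relatives. Acot1 was highest in WTSHAM hearts, at 10.8, 15.8 and 22.1 CPM, against 8.45, 4.68 and 12.3 CPM in WTCKD hearts. With the virus WTCKD + RNLS hearts had 5.01, 3.53 and 3.14 CPM. KOCKD hearts had 4.46, 9.60 and 7.73 CPM and KOCKD + RNLS hearts 3.90, 2.15 and 2.72 CPM. The groups of the knockouts did not overlap, while those of the wild type did. The difference was 2.19-fold lower in WTCKD + RNLS than in WTCKD (-1.13 ± 0.37), 2.47-fold lower in KOCKD + RNLS than in KOCKD (-1.30 ± 0.39) and 1.91-fold lower in WTCKD than in WTSHAM (-0.93 ± 0.33). Of the 100-base stretches of Acot1's transcripts, 32.5% also occur in transcripts of other genes, among them Acot2 and Acot3, so its counts are uncertain, and Acot2 had 71.6% to 93.4% of the summed FPKM of this pair. No such shared stretch was found for the other 7 genes, and the exons of none of the 8 overlap those of another annotated gene.

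Plin2 encodes a coat protein of lipid droplets whose amount follows the stored fat. It lies on the minus strand of chr4:86294290-86315964 (mm9). Its levels varied little, with 93.1, 81.5 and 68.6 CPM in WTSHAM, 71.8, 60.2 and 81.8 CPM in WTCKD and 58.4, 60.4 and 53.4 CPM in WTCKD + RNLS hearts. The 3 KOCKD hearts lay at 71.9, 72.8 and 73.7 CPM, all above the KOCKD + RNLS hearts at 54.0, 61.9 and 58.3 CPM. The log2 fold change of Plin2 was -0.31 ± 0.12 in WTCKD + RNLS against WTCKD, with overlapping groups, and -0.33 ± 0.12 in KOCKD + RNLS against KOCKD.

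Cpt1a encodes the liver form of carnitine palmitoyltransferase 1, which admits long fatty acids to mitochondria and is the minor form in adult heart. It lies at chr19:3323301-3385732 (mm9, plus strand). Its groups overlapped in all comparisons, with 60.6, 70.6 and 71.7 CPM in WTSHAM, 58.1, 50.9 and 72.1 CPM in WTCKD and 70.4, 36.9 and 48.4 CPM in WTCKD + RNLS hearts. KOCKD hearts had 65.4, 41.1 and 61.2 CPM and KOCKD + RNLS hearts 67.9, 57.7 and 58.6 CPM. Its log2 fold changes ran from -0.22 ± 0.20 for WTCKD + RNLS against WTCKD to 0.13 ± 0.20 for KOCKD + RNLS against KOCKD. The muscle form Cpt1b had 95.1% to 97.8% of the summed FPKM of both forms in every library, and its values were 0.07 ± 0.11 (adjusted p = 0.80) and -0.08 ± 0.11 (adjusted p = 0.66).

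Ucp2, at chr7:107641846-107650529 (mm9, plus strand), encodes a mitochondrial carrier found in many cell types, immune cells among them. Its levels were 69.3, 81.7 and 75.4 CPM in WTSHAM, 91.0, 95.7 and 51.9 CPM in WTCKD and 74.0, 46.8 and 47.7 CPM in WTCKD + RNLS hearts. KOCKD hearts had 67.5, 51.2 and 76.3 CPM and KOCKD + RNLS hearts 57.8, 54.4 and 67.3 CPM. Ucp2 did not share the order of Ucp3 in WTCKD, where replicate 3 was highest in Ucp3 and lowest in Ucp2. WTCKD + RNLS against WTCKD gave -0.50 ± 0.21 with overlapping groups. Of the summed FPKM of the pair Ucp2 had 80.8% to 88.7% in WTCKD + RNLS and 33.2% to 73.9% in WTCKD.

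Pdk2 encodes the pyruvate dehydrogenase kinase that is widely expressed and abundant in heart, and lies on the minus strand of chr11:94887572-94902668 (mm9). It was the only one of the 8 genes that was higher in WTCKD than in WTSHAM without overlap, with 611, 560 and 612 CPM in WTSHAM and 841, 799 and 905 CPM in WTCKD hearts. WTCKD + RNLS hearts had 795, 840 and 818 CPM, KOCKD hearts 818, 866 and 732 CPM and KOCKD + RNLS hearts 870, 900 and 952 CPM. All 12 hearts with CKD thus lay above the 3 WTSHAM hearts. The level was 1.43-fold higher in WTCKD than in WTSHAM (0.51 ± 0.08), and leaving out 1 library at a time moved this between 0.47 and 0.55. With the virus it was not lower, with -0.05 ± 0.08 in the wild type and 0.17 ± 0.08 in the knockouts, where the groups did not overlap.

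Pdk2 and Pdk4 together made up most of the FPKM of the 4 Pdk genes. Pdk4 had 27.4%, 44.7% and 42.8% of this sum in WTSHAM hearts and 37.3%, 30.0% and 50.0% in WTCKD hearts. In WTCKD + RNLS hearts its share was 5.70% to 7.95%, and in KOCKD + RNLS hearts 5.18% to 8.22%. KOCKD hearts, at 29.4%, 11.8% and 29.5%, lay above the hearts with the virus and below the WTCKD hearts, and overlapped the WTSHAM hearts. The sum over the 4 genes was 363 to 370 FPKM in WTCKD + RNLS and 517 to 765 FPKM in WTCKD. Pdk1 had 5.41% to 12.5% and Pdk3 at most 0.103% of the sum in any library, and the adjusted p of both was above 0.05 in every comparison (in KOCKD + RNLS against KOCKD, Pdk1 gave 0.25 ± 0.10, adjusted p = 0.094).

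**Figure D2:**
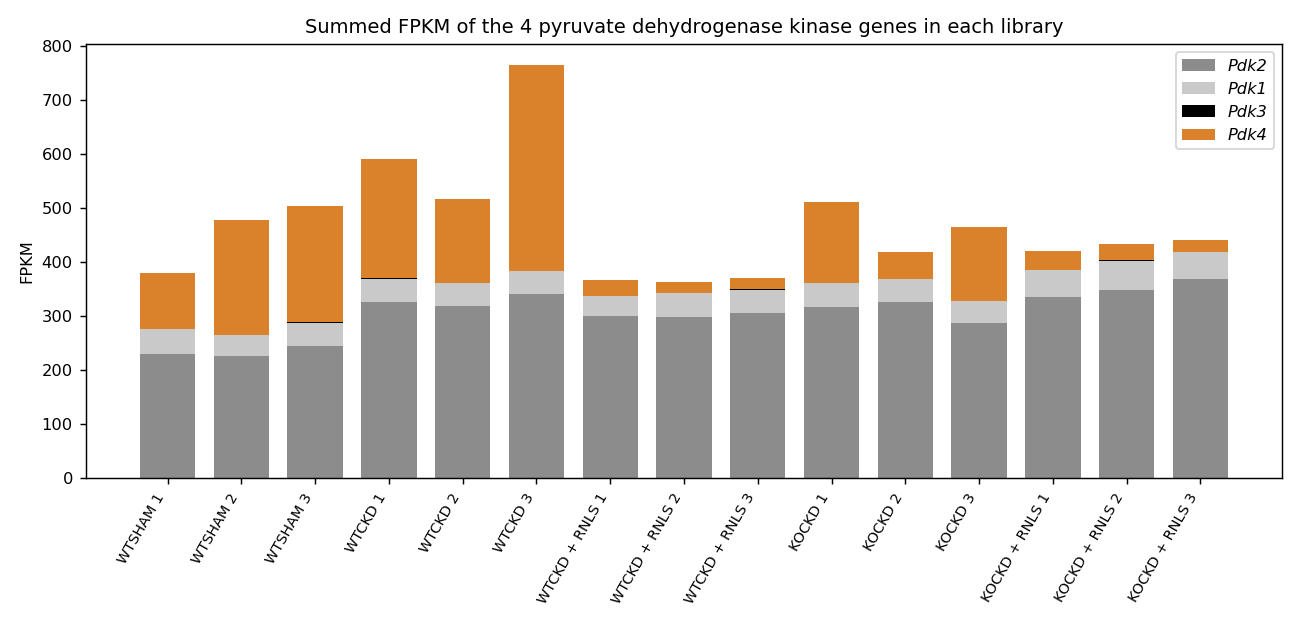
Stacked bars of FPKM of Pdk2, Pdk1, Pdk3 and Pdk4 in each of the 15 libraries, named by group and replicate. The part of Pdk4 is 20.7 to 34.5 FPKM in the 6 libraries with the virus and 49.2 to 382 FPKM in the other 9, while Pdk2 stays between 226 and 369 FPKM.

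The question of the first comparison, WTCKD against WTSHAM, was what CKD changed in the heart. Only Pdk2 of the 8 genes passed an adjusted p of 0.05 in edgeR's quasi-likelihood test over all genes, and it was higher. Of all genes tested 2.30% passed, 0.599% higher and 1.70% lower. The groups did not overlap for 1 of the 8 genes and for 22.5% of all genes. The choice of the 8 genes drew on this contrast, so nothing is read from these shares, here or in the next comparisons.

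The comparisons with the virus asked what RNLS changed in CKD hearts of each genotype. In WTCKD + RNLS against WTCKD, Angptl4, Pdk4 and Ucp3 passed, all lower, where 4.47% of all genes did, 2.19% higher and 2.28% lower. The same 3 genes did not overlap between the groups, lower in each case, as did 21.2% of all genes, of which those that were lower made up 10.8% of all genes. All 8 log2 fold changes were negative, as were 6225 of the 13021 over all genes. Pdk2 (-0.05 ± 0.08) and Cpt1a (-0.22 ± 0.20) were near 0. The median of the 8 was -0.81, beside a median of 0.01 over all genes. In KOCKD + RNLS against KOCKD, Angptl4, Pdk4, Ucp3 and Acot1 passed, all lower, where 16.1% of all genes did, 9.05% higher and 7.04% lower. Angptl4, Pdk4, Acot1 and Plin2 were lower without overlap and Pdk2 was higher, where 40.6% of all genes did not overlap, 20.0% being lower. Of the 8 genes 6 were negative and 2, Pdk2 and Cpt1a, positive, where 6633 of the 13021 genes were negative. The median of the 8 genes was -0.82, beside -0.01 over all genes. In the knockouts the call of Ucp3 was lost in 8 of 12 alternatives and that of Acot1 in 5 of 12. Because the 8 genes were chosen on these values, their calls are counts that describe the data and lend no support. WTCKD hearts served in the comparisons with WTSHAM, with WTCKD + RNLS and with KOCKD, which are therefore not independent of each other.

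**Figure D3:**
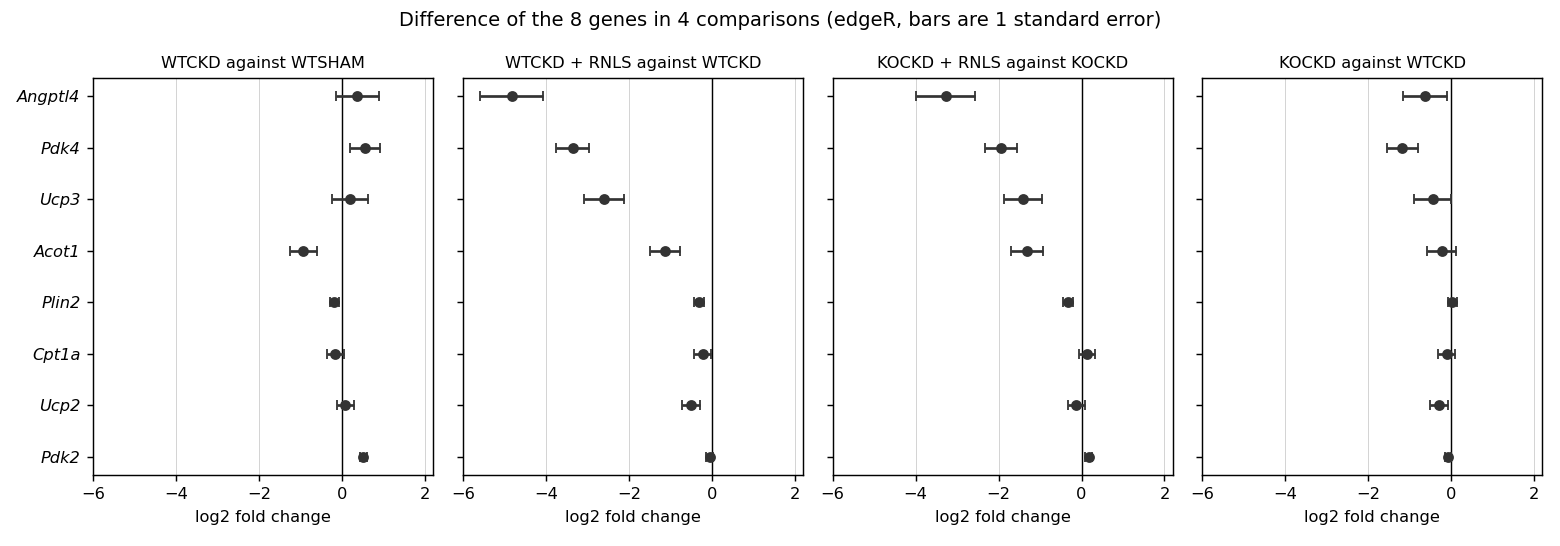
Log2 fold changes of the 8 genes (points) with 1 standard error (bars) from edgeR's fit in 4 comparisons, with a vertical line at 0. Angptl4, Pdk4, Ucp3 and Acot1 lie between -4.83 and -1.13 in WTCKD + RNLS against WTCKD and between -3.28 and -1.30 in KOCKD + RNLS against KOCKD, while Plin2, Cpt1a, Ucp2 and Pdk2 lie between -0.50 and 0.17 in both.

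KOCKD against WTCKD asked how knockout and wild type hearts with CKD differed, which includes any difference in the source of the mice. None of the 8 genes passed in edgeR, nor did any of the 13021 genes (0%), of which 1318 had an unadjusted p under 0.05. DESeq2 called 9 genes, none of them among the 8. Pdk4 was the 1 gene of 8 without overlap, where 19.3% of all genes did not overlap. The effect of RNLS was then compared between the genotypes. This difference, taken as the effect in the knockouts minus that in the wild type, was 1.55 ± 1.16 for Angptl4, 1.42 ± 0.53 for Pdk4 and 1.18 ± 0.66 for Ucp3, the effect being smaller in the knockouts. For the other 5 genes it was between -0.18 and 0.38. None of the 8 genes and 0% of all genes passed in edgeR, 2288 genes had an unadjusted p under 0.05, and DESeq2 called 363 genes, none of them among the 8. Without WTCKD replicate 3 these differences were 0.70 for Angptl4, 0.97 for Pdk4 and 0.70 for Ucp3.

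The rest of the pathway was described with 96 genes listed by role, 90 of which were tested. In WTCKD against WTSHAM none passed in edgeR (20 had an unadjusted p under 0.05, and DESeq2 called 1), with a median log2 fold change of -0.08. In WTCKD + RNLS against WTCKD 2 rose and 4 fell, with a median of 0.11. These were 6.67% of the 90 genes, where 4.47% of all genes passed. In KOCKD + RNLS against KOCKD 7 rose and 13 fell, with a median of -0.07, which made 22.2% of the 90 where 16.1% of all genes passed. In KOCKD against WTCKD none passed (9 unadjusted, DESeq2 called 1), nor for the difference between the genotypes (29 unadjusted, DESeq2 called 10). The medians over all genes tested were within 0.02 of 0 in each comparison. The counts per list below stand beside these same shares of all genes, and no list was tested as a set.

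Among receptors and coactivators, Ppara, the receptor itself, rose with the virus in both genotypes. Its levels were 96.6, 98.4 and 106 CPM in WTCKD and 134, 132 and 163 CPM in WTCKD + RNLS hearts (0.51 ± 0.11, adjusted p = 0.014). KOCKD hearts had 86.2, 97.3 and 82.3 CPM and KOCKD + RNLS hearts 129, 111 and 118 CPM (0.43 ± 0.11, adjusted p = 0.015). The groups did not overlap in either genotype. Ppard gave -0.09 ± 0.10 and 0.21 ± 0.10 (adjusted p = 0.66 and 0.15), Pparg gave -0.10 ± 0.22 and -0.43 ± 0.22 (adjusted p = 0.86 and 0.19), and the coactivator Ppargc1a gave 0.35 ± 0.12 and 0.15 ± 0.12 (adjusted p = 0.13 and 0.45). Of the 15 genes 1 rose in the wild type, and 5 rose and 1 fell in the knockouts. Besides Ppara, the genes that passed in the knockouts with the largest change were Nrip1, a corepressor (0.52 ± 0.16, adjusted p = 0.032), Med1, a subunit of the Mediator complex (0.43 ± 0.11, adjusted p = 0.014), and Rxrg, a partner of PPAR (-0.43 ± 0.10, adjusted p = 0.011). The coactivator Ppargc1b, named after its values were seen, did not pass in the knockouts, with 0.54 ± 0.20 (adjusted p = 0.072). It did not pass in the wild type either, with means of 38.2 CPM in WTCKD and 58.8 CPM in WTCKD + RNLS. Its groups did not overlap in either genotype, where 40.6% of all genes did not in the knockouts and 21.2% in the wild type.

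Of 12 genes for lipolysis and fatty acid uptake, 3 fell in each genotype. In the wild type these were Acsl3 (-0.82 ± 0.18, adjusted p = 0.015) and Acsl5 (-0.55 ± 0.12, adjusted p = 0.015), which activate fatty acids with coenzyme A, and the lipoprotein receptor Vldlr (-0.41 ± 0.09, adjusted p = 0.015). In the knockouts they were the fatty acid binding proteins Fabp4 (-0.53 ± 0.14, adjusted p = 0.018) and Fabp3 (-0.52 ± 0.13, adjusted p = 0.013) and the fatty acid transporter Cd36 (-0.47 ± 0.08, adjusted p = 0.0030). Among 8 genes of the carnitine shuttle and malonyl-CoA, Mlycd, whose enzyme removes malonyl-CoA, fell in both genotypes (-0.45 ± 0.12, adjusted p = 0.041, and -0.65 ± 0.12, adjusted p = 0.0034), and Acacb, whose enzyme makes it, rose in the knockouts (0.44 ± 0.10, adjusted p = 0.0090).

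Of 12 genes of the pyruvate dehydrogenase switch, none passed in the wild type, where 4 had an unadjusted p under 0.05. In the knockouts Pdpr, a regulator of pyruvate dehydrogenase phosphatase, rose (0.80 ± 0.16, adjusted p = 0.0048), and Mpc2, a subunit of the mitochondrial pyruvate carrier, fell (-0.43 ± 0.13, adjusted p = 0.040). Of 9 thioesterase genes tested, 2 fell in the knockouts, Acot2 (-0.66 ± 0.15, adjusted p = 0.010) and Acot13 (-0.36 ± 0.11, adjusted p = 0.030). In the wild type none passed, and Acot2 gave -0.43 ± 0.15 (adjusted p = 0.12). Among 11 lipid droplet genes, Dgat2, an enzyme of triglyceride synthesis, rose in the wild type (0.54 ± 0.13, adjusted p = 0.031). In the knockouts Plin5, the droplet coat protein of oxidative tissues (-0.74 ± 0.15, adjusted p = 0.0049), and the lipases Lipe (-0.64 ± 0.14, adjusted p = 0.0075) and Mgll (-0.41 ± 0.12, adjusted p = 0.035) fell. Plin3 and Plin4 did not pass in any comparison, with values between -0.34 and 0.34. Plin5 gave -0.05 ± 0.15 in the wild type (adjusted p = 0.89), and the difference between the genotypes was -0.69 ± 0.21 (adjusted p = 0.14). Of 6 mitochondrial carriers, Slc25a5 (-0.53 ± 0.11, adjusted p = 0.0056) and Slc25a4 (-0.31 ± 0.09, adjusted p = 0.026), which exchange ADP and ATP, fell in the knockouts.

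The genes for fatty acid oxidation and ketogenesis, many of them classical PPARα targets, showed no call in edgeR in any comparison. Of 22 listed genes 17 were tested. Of these 16 were negative in WTCKD against WTSHAM (median -0.15, 2 with an unadjusted p under 0.05), 16 were positive in WTCKD + RNLS against WTCKD (median 0.20, 4 unadjusted) and 15 were negative in KOCKD + RNLS against KOCKD (median -0.12, 3 unadjusted). Angptl4, Pdk4 and Ucp3, the 3 largest changes of the 8 genes, lay far below these genes in both comparisons with the virus. Plin2, Cpt1a, Ucp2 and Pdk2 of the same 8 lay between -0.50 and 0.17, as the plot by role shows. The 8 genes were chosen on these values, so nothing is read from this contrast. That the 8 genes respond to PPAR is background knowledge, and the activity of PPAR was not measured in these hearts.

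**Figure D4:**
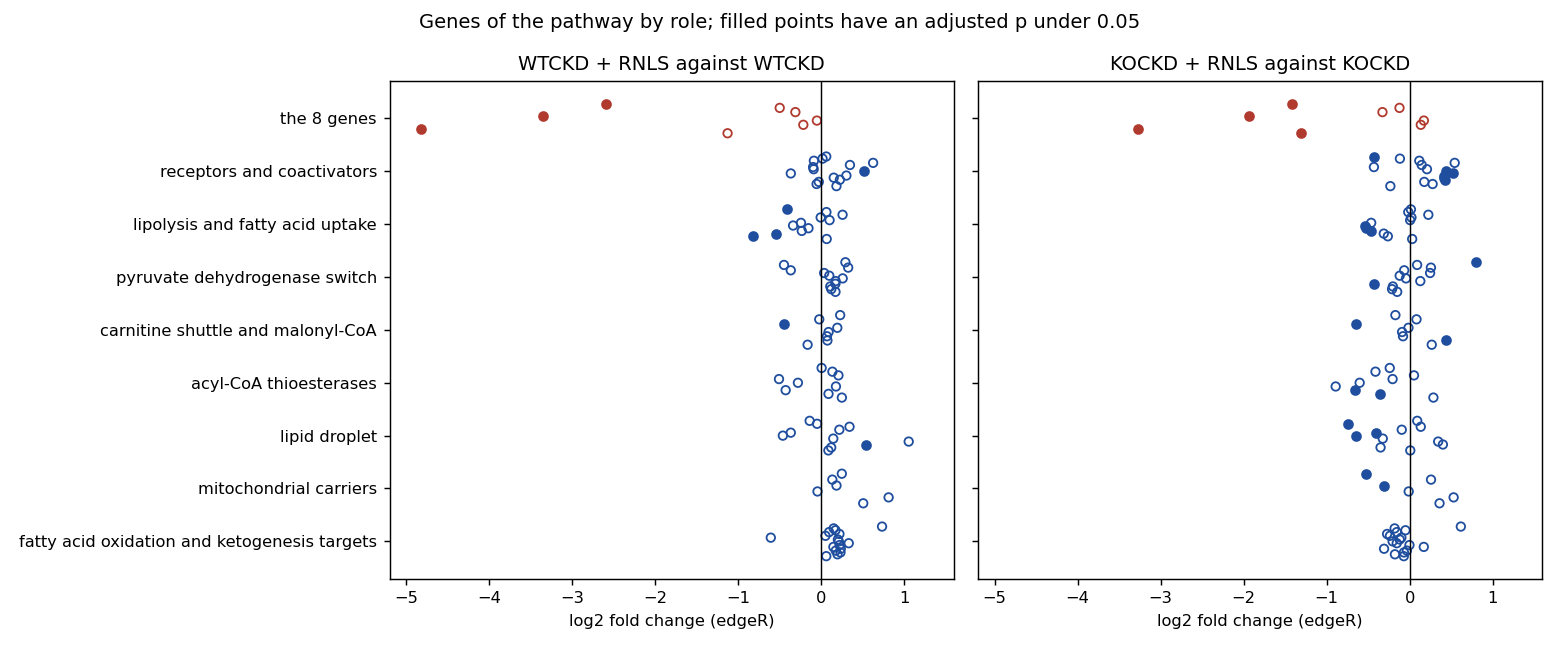
Log2 fold changes (horizontal axis) of the 8 genes (top line, red) and of the 90 other pathway genes tested (blue), 1 line per role, in WTCKD + RNLS against WTCKD (left) and KOCKD + RNLS against KOCKD (right). Filled points have an adjusted p under 0.05 in edgeR, which for the 8 genes is shown as a description; Angptl4, Pdk4 and Ucp3 reach -4.83, -3.35 and -2.59 on the left.

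Genes of the glucocorticoid and FoxO response to fasting were given by the same list in each comparison. Of 16 genes 4 rose in WTCKD against WTSHAM, namely Sgk1 (1.07 ± 0.27, adjusted p = 0.047), Txnip (0.99 ± 0.22, adjusted p = 0.026), Klf15 (0.55 ± 0.14, adjusted p = 0.049) and Fbxo32 (0.38 ± 0.09, adjusted p = 0.033). In WTCKD + RNLS against WTCKD 2 rose and 3 fell. Zbtb16 (1.53 ± 0.35, adjusted p = 0.021) and Foxo3 (0.52 ± 0.13, adjusted p = 0.034) rose, and Txnip (-1.26 ± 0.22, adjusted p = 0.0052) and Fbxo32 (-0.50 ± 0.09, adjusted p = 0.0057) were among those that fell. In KOCKD + RNLS against KOCKD 3 rose, among them Irs2 (1.03 ± 0.28, adjusted p = 0.022) and Foxo3 (0.66 ± 0.13, adjusted p = 0.0054), and Txnip (-1.16 ± 0.22, adjusted p = 0.0039) and Trim63 (-0.35 ± 0.10, adjusted p = 0.030) fell. Txnip, which limits glucose uptake, was at 861 to 1390 CPM in WTCKD and at 407 to 556 CPM in WTCKD + RNLS hearts, without overlap.

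Clock genes also differed between hearts with and without the virus, most of the evening phase in the opposite direction to Angptl4, Pdk4 and Ucp3. Of 11 clock genes of the evening phase, 9 rose in WTCKD + RNLS against WTCKD, and 8 rose and 1, Nr1d1, fell in KOCKD + RNLS against KOCKD. Their sum was 883 to 1122 CPM in WTCKD + RNLS and 957 to 1180 CPM in KOCKD + RNLS hearts, against 356 to 720 in WTSHAM, 447 to 508 in WTCKD and 467 to 906 CPM in KOCKD hearts. Dbp, an output gene of the clock, gave 2.24 ± 0.56 in the wild type (adjusted p = 0.033) and 1.22 ± 0.53 in the knockouts (adjusted p = 0.13), and Per2 gave 3.07 ± 0.59 (adjusted p = 0.0087) and 2.37 ± 0.57 (adjusted p = 0.013). Bmal1 (Arntl in the table), the core activator of the morning phase, fell to 1.34 to 2.45 CPM in WTCKD + RNLS from 30.5 to 34.0 CPM in WTCKD hearts (-4.06 ± 0.46, adjusted p = 0.00033). It was at 1.41 to 1.63 CPM in KOCKD + RNLS and 9.99 to 24.5 CPM in KOCKD hearts. Of 5 clock genes of the morning phase, 4 were lower with the virus and 1, Cry1, was higher in each genotype. Of these 3 passed in the wild type and 1 in the knockouts, all lower. Within groups a high evening sum went with low levels of Angptl4, Pdk4 and Ucp3 in some hearts and not in others. WTSHAM replicate 1 had the highest evening sum of its group, 720 CPM against 509 and 356 CPM, and the lowest Angptl4 (7.17 CPM), Pdk4 (366 CPM) and Ucp3 (50.6 CPM). By contrast, KOCKD replicate 3, at 906 CPM in the evening sum and so within the range of the hearts with the virus, had 14.3 CPM of Angptl4, 465 CPM of Pdk4 and 99.3 CPM of Ucp3. KOCKD replicate 2, at 467 CPM, had the lowest levels of its group in these genes. Hour of collection and feeding before it are not given in the sources used here, and their part in the differences was not tested.

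**Figure D5:**
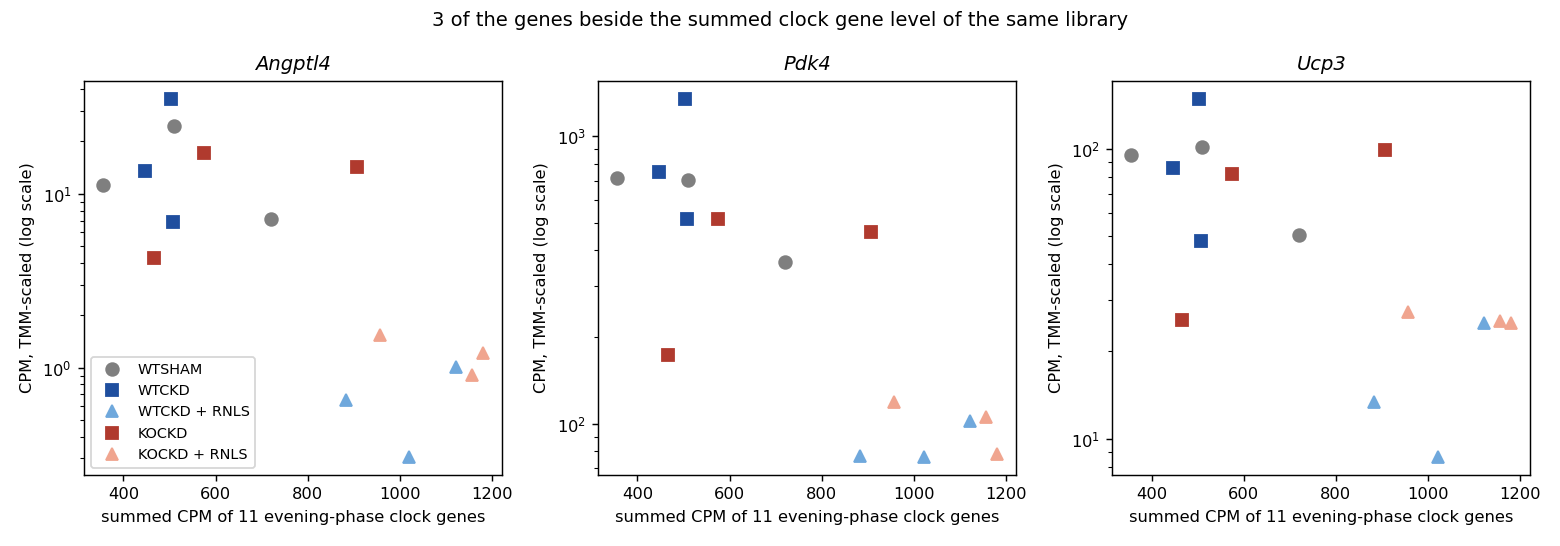
CPM of Angptl4, Pdk4 and Ucp3 (vertical axes, log scale) against the summed CPM of 11 clock genes of the evening phase in the same library, 1 point per library and 1 colour and shape per group. The 6 libraries with the virus lie at the lower right, between 883 and 1180 CPM, and KOCKD replicate 3 lies above them at 906 CPM.

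Markers of other cell types were read in the same libraries. In bulk hearts fewer cells of a type and less RNA per cell cannot be told apart. Fat cells express Angptl4 and Plin2, and the sum of 6 adipocyte genes was 0.334 to 2.76 CPM in WTCKD + RNLS, 0 to 9.51 in KOCKD + RNLS, 0.0851 to 18.4 in WTCKD, 0 to 19.0 in KOCKD and 3.50 to 28.3 CPM in WTSHAM hearts. WTCKD replicate 3, with the highest Angptl4 of all libraries, had 0.0851 CPM of these genes, with 0 counts of the defining markers Adipoq and Plin1 beside 413 counts of Angptl4. KOCKD replicate 2 went the other way, with all 6 adipocyte genes at 0 and the lowest Angptl4, Pdk4 and Ucp3 of its group, and WTSHAM replicate 1, with 3.50 CPM, was also the lowest of its group in both respects. None of the 5 adipocyte genes tested passed in any comparison, all 5 being lower with the virus in both genotypes. Macrophage genes, which can carry Ucp2, were lower with the virus in 9 of 9 genes in both genotypes, of which 0 and 2 passed, with sums of 392 to 424 CPM in WTCKD + RNLS, 424 to 575 in WTCKD, 282 to 368 in KOCKD + RNLS and 390 to 467 CPM in KOCKD hearts. Of 6 endothelial genes 4 fell with the virus in the wild type and 1 in the knockouts, with sums of 900 to 958 CPM in WTCKD + RNLS and 1230 to 1395 in WTCKD, and of 1032 to 1047 in KOCKD + RNLS and 1089 to 1286 CPM in KOCKD hearts. Atrial genes ranged from 84.7 to 2332 CPM in WTCKD and from 116 to 2649 CPM in KOCKD hearts, and from 121 to 474 CPM in the hearts with the virus, and 3 of 4 tested fell in the knockouts. In WTCKD replicate 3 atrial genes were at 84.7 CPM, the lowest of all libraries. Fibroblast genes were at 791 to 988 CPM in WTCKD + RNLS and at 940 to 1435 CPM in WTCKD hearts. They were at 773 to 882 CPM in KOCKD + RNLS, 849 to 1090 in KOCKD and 1192 to 1627 CPM in WTSHAM hearts. With the virus 6 of 6 fibroblast genes were lower in the wild type and 4 of 6 in the knockouts, and 1 passed in each genotype, lower. Erythrocyte genes were at 217 to 527 CPM in WTCKD + RNLS and at 38.0 to 107 CPM in WTCKD hearts, all 5 genes being higher without overlap (median log2 fold change 2.72, 1 passed). They were at 73.6 to 293 CPM in KOCKD + RNLS, 51.1 to 375 in KOCKD and 68.5 to 625 CPM in WTSHAM hearts. The sum of the 8 cardiomyocyte genes was also higher with the virus without overlap, at 108244 to 117746 CPM in WTCKD + RNLS against 88431 to 102267 in WTCKD and at 100980 to 104020 CPM in KOCKD + RNLS against 90376 to 95922 in KOCKD hearts. All 8 were positive in the wild type, where none passed (4 had an unadjusted p under 0.05), while 3 were positive in the knockouts, where 2 rose. Skeletal muscle genes were at 4.90 to 7.51 CPM in WTCKD + RNLS and 2.72 to 3.21 CPM in WTCKD hearts. Of 5 genes listed for brown adipocytes (Ucp1, Cidea, Dio2, Elovl3 and Cox8b) 3 were tested, and 1 fell with the virus in the knockouts. The 5 genes summed to 337 to 354 CPM in KOCKD + RNLS and 450 to 547 CPM in KOCKD hearts. Sums were of similar size in the other groups, at 372 to 435 CPM in WTSHAM, 354 to 433 in WTCKD and 348 to 494 CPM in WTCKD + RNLS. In KOCKD replicate 2, with the highest sum, 2 of the 5 had 0 counts. Whether this sum came from brown fat cells was not tested. The part of these cell types in the differences of the 8 genes was not tested.

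The genes most like each of the 8 in pattern were taken from 11719 other genes by Pearson's r of log2 CPM over the 15 libraries, without a test, since the libraries fall into the 5 groups. Plin2 was most like Acot2 (r = 0.91), Fabp3 (0.88) and Cd36 (0.87), which are all on the lists of the pathway. Pdk4 was most like Dtx4 (0.94), Actb (0.93) and Ptma (0.92), Angptl4 most like Actb (0.94), Cx3cl1 (0.92) and Ptma (0.92), and Ucp3 most like Irs1 (0.89), Dtx4 (0.89) and Slc25a22 (0.87). After subtracting the group means these values were, in the same order, 0.71, 0.48 and 0.34 for Pdk4 and 0.70, 0.39 and 0.41 for Angptl4. For Ucp3 they were 0.54, 0.78 and 0.87. Pdk2 was most like Kcnip2 (0.93), Tsc2 (0.92) and Med25 (0.92). For Acot1 the genes were Nop58 (0.90), Agpat3 (0.88) and Ms4a7 (0.87), for Cpt1a Elac1 (0.89), Col20a1 (0.86) and Lrch2 (0.85), and for Ucp2 Maf (0.84), Zfp36l2 (0.84) and Ugdh (0.83).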

How the data were processed

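Heart RNA of 15 mice was measured by RNA-seq, and samples were grouped by their titles. The authors trimmed the reads with Trimmomatic, mapped them with hisat2 and obtained counts per gene with htseq-count, which they deposited as whole numbers. Their supplement names mm9 and the older DESeq package, while the submitters' processing notes name GRCm39 and DESeq2. The authors also deposited FPKM computed with cufflinks, which the values show to be each count over the library total and a length that is fixed for the gene. Tool versions and strand setting are not given in the sources used here. P-values come from the counts with edgeR 4.0.16 (R 4.3.3, limma 3.58.1) as a quasi-likelihood fit of the group over all 15 libraries, with TMM scaling, a count minimum of 10 and a total minimum of 15, and Benjamini-Hochberg adjustment over 13021 genes at 0.05. Fold changes are log2 values of this fit, and correlations used log2 CPM with a prior count of 2. The code was tested on simulated data.

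The 8 genes, the lists of related genes, markers and motifs, and the tests were chosen with earlier results of these data known. Named genes are the 8, PPAR and clock genes, close paralogs, per list and comparison up to 4 called genes with the largest change and an average log2 CPM above 1, and the 3 genes most like each of the 8. Alternatives were DESeq2 1.42.0, RLE factors, no filter, a replicate block, fewer libraries, length offsets, leaving out each library and the study's threshold of FC > 1.25 with unadjusted p < 0.05. Positions are from GENCODE M1 (mm9) and promoter windows from RefSeq (GRCm38.p6). With 3 libraries a group, an exact permutation test cannot go below p = 0.1. Replicate pairs differed beyond sampling noise, so no library was counted as a duplicate. Python 3.11.15 with pandas and matplotlib served for tables and figures. Rnls and Xist are not reported here.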

Additional observations from a re-analysis of the deposited data

How the results depend on the processing

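The 8 genes were chosen on these values, so that their signs and calls under the alternatives are no sign of stability. In KOCKD + RNLS against KOCKD the call of Ucp3 was lost in 8 of 12 alternatives (DESeq2, replicate block, gene length offsets, and without any 1 of 5 libraries) and that of Acot1 in 5 of 12, with values of -1.80 to -1.05 and -1.58 to -1.05. The cause was not tested. At the study's threshold the counts of genes called in the order of the report (WTCKD against WTSHAM, WTCKD + RNLS against WTCKD, KOCKD + RNLS against KOCKD, KOCKD against WTCKD, difference between the genotypes) were 1470, 1874, 2902, 732 and 1981, and of pathway genes 11, 20, 23, 5 and 23, against 299, 582, 2095, 0 and 0 and 0, 6, 20, 0 and 0 at the adjusted p. DESeq2 gave 584 and 894 genes in the first and second, 9 in KOCKD against WTCKD and 363 for the difference, and 1, 11, 1 and 10 pathway genes in the same comparisons. With only the libraries of the comparison 99 and 380 genes passed in the first and second, 2 in KOCKD against WTCKD, and 31 pathway genes in the third. With length offsets 710 genes passed in the third, and 1, 11 and 12 pathway genes in the first 3. Without the filter 5 genes passed in KOCKD against WTCKD and 1 pathway gene in WTCKD against WTSHAM, and with RLE factors 4 genes in KOCKD against WTCKD. Same-numbered libraries did not deviate together (median r -0.037 over 30 pairs, from -0.36 to 0.33), so no pairing by number was seen. With 3 libraries a group this cannot show that there is none. The replicate block gave 253, 522, 1909, 1 and 0 genes. Leaving out 1 library at a time, all genes called ranged from 136 to 380, 209 to 761, 862 to 1476, 0 to 3 and 0 to 2, and pathway genes from 0 to 2, 2 to 8 and 10 to 21 in the first 3. The counts fell by over 1.5 times without WTSHAM replicate 2 (185) or WTCKD replicates 1, 2 or 3 (136, 176, 147) in the first, without WTCKD replicates 1 or 2 (281, 209) or WTCKD + RNLS replicates 1 or 3 (280, 291) in the second, and without KOCKD replicate 2 (862) or KOCKD + RNLS replicates 1, 2 or 3 (1130, 895, 1216) in the third. Pathway counts did so without WTCKD replicates 1, 2 or 3 (2, 3, 3) in the second and without KOCKD replicate 2 or KOCKD + RNLS replicates 1 or 2 (10, 12, 11) in the third. Angptl4 had at most 19 counts in the hearts with the virus, so the size of its fold change is less certain than that of Pdk4.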
